A study of Mus musculus with 4 samples.

Results

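The nuclear and mitochondrial genes that encode the respiratory chain and the ATP synthase were examined in colon of C57BL/6 mice at postnatal day 21. They were taken by symbol from the table of counts per gene, namely symbols that begin with Nduf and a letter from a, b, c, s or v, with Uqcr, with Cox and a digit from 4 to 8 or with Atp5, the genes Sdha to Sdhd, and the 13 protein genes of the mitochondrial genome. This gave 114 of 46095 symbols, 13 mitochondrial and 101 nuclear. Of the nuclear symbols 83 encode subunits, 7 are the complex I assembly factors Ndufaf1 to Ndufaf7, 9 are pseudogenes, and Atp5s and Atp5sl encode proteins that are not counted among the subunits here. For each of the 114 a RefSeq gene of GRCm38.p6 was found.

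The study holds 2 libraries from wild-type mice (WT) and 2 from Esr2-/- mice (Esr2-KO), which lack Esr2, the gene of estrogen receptor β, in all cells as far as the labels say. Strain, tissue and age were the same in both groups, and no treatment is named for either. RNA was total RNA depleted of ribosomal RNA. Whether each library is a different animal is not told by the labels, so that p-values rest on the spread between these libraries only. For a single gene, edgeR also draws on the spread of the other genes. The design text speaks of triplicates, and 2 libraries per group were analysed here.

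Oxidative phosphorylation couples the transfer of electrons to the synthesis of ATP at the inner mitochondrial membrane. Complex I takes electrons from NADH and complex II takes them from succinate, complex III passes them to cytochrome c, complex IV hands them to oxygen, and complex V, the ATP synthase, uses the proton gradient that complexes I, III and IV build. Complex II is encoded wholly in the nucleus, whereas the other complexes mix nuclear subunits with subunits translated inside the mitochondrion from its own circular genome. Differentiated colonocytes are known for burning butyrate made by gut bacteria through this chain.

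Library totals ran from 30826790 to 33709643 counts. One Esr2-KO library stood apart: the 29 exocrine pancreas markers took 20.7% of the counts of Esr2-KO 2, against 0.0501%, 0.0548% and 0.195% of WT 1, WT 2 and Esr2-KO 1. CPM stands for counts scaled to the same library total, with TMM factors applied, and on this scale the 15 colonocyte markers summed to 13310 and 15740 CPM in WT, against 7515 and 6511 in Esr2-KO, with all 15 detected in every library. These markers did not move as one: 10 had a negative and 5 a positive log2 fold change. In both Esr2-KO libraries 9 were below and 4 above (background 27.7% and 27%), and 3 passed the test, all lower (background 1.39%). Car1 had 3002 and 6491 CPM in WT and was at 1112 and 1082 in Esr2-KO, whereas Car4 went from 546 and 685 to 1156 and 1348 CPM. The 10 goblet cell markers summed to 24780, 23310, 21450 and 15040 CPM in the same order. They did not move as one either, with 8 negative and 2 positive fold changes and 0 called (background 2.69%). The 13 proliferation markers, all with negative fold changes and 1 of them called lower (background 1.39%), summed to 1052, 743, 526 and 459 CPM. The 13 markers of enteric neurons and glia, all negative and 0 called (background 2.69%), summed to 167, 173, 126 and 114.5 CPM. Esr2 itself had 21 and 13 counts in WT, against 6 and 16 in Esr2-KO, too few to check the genotype. In whole tissue, fewer cells of a type and less RNA per cell cannot be told apart, and the part of these shifts in the results below was not tested.

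Reads of mitochondrial genes can match nuclear copies of the mitochondrial genome. Annotated GENCODE transcripts of other genes that matched at 99% identity or more over at least 50 bases held 99.6% of COX2, 99.6% of ATP6, 99.9% of COX3, 99.14% of ND3 and 98.99% of ND4L, all of them in pseudogenes that lie side by side on chromosome 1. They held 63.6% of ND4 and 31.3% of COX1, and no stretch of at least 50 bases of ND1, ND2, ND5, ND6, CYTB and ATP8. The end of ATP8 that overlaps ATP6 is shorter than 50 bases, so that a copy of it would not be counted. The copy of COX2, Gm28661, matched over 681 bases with 0 mismatches. A stretch of 60 bases from the middle of COX2 and of this copy (GRCm38, sense strand of each gene) shows that a read from here carries no base that tells the genes apart.
COX2, chrM:7313-7372, plus strand: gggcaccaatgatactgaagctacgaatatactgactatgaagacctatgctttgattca
Gm28661, chr1:24615206-24615265, minus strand: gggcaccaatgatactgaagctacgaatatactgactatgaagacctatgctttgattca

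Levels of the 13 mitochondrial transcripts fell into widely separated ranges that followed this map in part. Per kilobase of transcript and averaged over the 4 libraries, COX1, the catalytic core of complex IV, was the highest at 28742 CPM per kb, followed by CYTB, the cytochrome b of complex III, at 8319 and ND1 at 7237. ND4, ND2 and ND5, further membrane subunits of complex I, stood at 1956, 1819 and 1730 CPM per kb. The 5 transcripts that were almost wholly shared with chromosome 1 lay far lower, with COX3 at 61.8, COX2 at 50.5, ATP6 at 45.9, ND3 at 13.8 and ND4L at 7.31 CPM per kb. ATP8, which encodes a small subunit of the ATP synthase and overlaps ATP6, stood at 8.66 CPM per kb. ND6, the protein gene on the opposite strand, stood at 61.8. No annotated copy of at least 50 bases was found for either. The sources used here do not say how reads with several matches were counted or whether strand was used. The part of the copies or of strand in these levels was not tested, and levels of COX2, COX3, ATP6, ATP8, ND3, ND4L and ND6 are uncertain. Levels of ND4 and COX1, which copies hold in part, are uncertain too, and so is their place in the order.

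**Figure D1:**
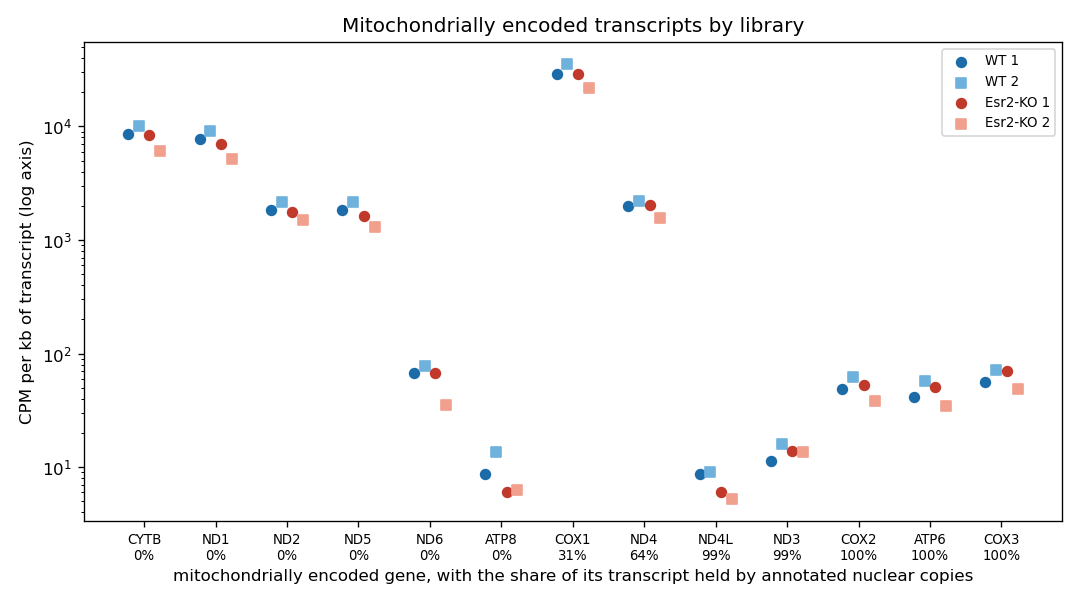
CPM per kb of transcript (log axis) of the 13 mitochondrially encoded genes in each of the 4 libraries, with the share of each transcript held by annotated nuclear copies under its name. COX1 leads at 28742 CPM per kb on average, and COX3, COX2, ATP6, ND3 and ND4L, which are covered by 98.99% or more, lie between 61.8 and 7.31.

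None of the 13 mitochondrial transcripts passed the test between the genotypes, although most had lower values in Esr2-KO. For 12 of 13 the fitted log2 fold change lay below 0, as it did for 50.3% of all 17169 genes tested, and the median was -0.33 beside -0.0031 for all genes. Both Esr2-KO libraries lay below both WT libraries for 6 of the 13 (background 27.7%) and above for 0, and the other 7 overlapped. The count of 0 is from edgeR's quasi-likelihood test at a Benjamini-Hochberg adjusted p of 0.05, which called 2.69% of all genes. At an unadjusted p under 0.05 the count was also 0 (background 20.6%), and limma-voom gave 0 and DESeq2 gave 1, ND5 (background 3.53% and 9.83%). The median was -0.14 without Esr2-KO 2, -0.16 without WT 2, -0.47 without WT 1 and -0.55 without Esr2-KO 1.

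COX1 had 44501 and 54528 CPM in WT, against 44900 and 33697 in Esr2-KO. Esr2-KO 1 thus stood just above WT 1, and the groups overlapped, at a log2 fold change of -0.33 ± 0.31 (SE, n = 2 in each group, edgeR adjusted p = 0.583). CYTB had 9878 and 11647 CPM in WT against 9573 and 6969 CPM in Esr2-KO, so that the groups did not overlap, and its log2 fold change was -0.38 ± 0.28 (edgeR adjusted p = 0.491).

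Among the complex I transcripts, ND1 stood at 7344 and 8688 CPM in WT, against 6698 and 4973 in Esr2-KO, and ND5 at 3362 and 3933 against 2953 and 2374 CPM. In both of these Esr2-KO 1 was close below WT 1 and Esr2-KO 2 was the lowest, and the log2 fold changes were -0.46 ± 0.27 (edgeR adjusted p = 0.394) and -0.45 ± 0.24 (edgeR adjusted p = 0.349). ND2 had 1897 and 2249 CPM in WT against 1840 and 1565 CPM in Esr2-KO (log2 fold change -0.28 ± 0.23), and ND4 had 2757 and 3031 against 2830 and 2166 CPM (-0.21 ± 0.24). ND6 had 35.0 and 40.0 CPM in WT, against 35.1 and 18.2 in Esr2-KO, which puts a single library, Esr2-KO 2, apart from the other 3. Its log2 fold change was -0.49 ± 0.29 (edgeR adjusted p = 0.387). It was -1.04 without Esr2-KO 1, a fit that leaves Esr2-KO 2 as the only library of its group.

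The lowest mitochondrial transcripts had few counts. ATP8 had 65 and 96 counts in WT, against 42 and 34 in Esr2-KO, and ND4L had 95 and 94 against 62 and 41. Their log2 fold changes, -0.85 ± 0.40 and -0.66 ± 0.34, were the lowest of the 13 and did not pass (edgeR adjusted p = 0.292 and 0.328). ND3 had 144 and 195 counts in WT, against 166 and 126 in Esr2-KO, with a log2 fold change of 0.0099 ± 0.28 that lay below 0 with upper-quartile factors or library totals. COX2, COX3 and ATP6 overlapped between the groups, with log2 fold changes of -0.27 ± 0.20, -0.10 ± 0.21 and -0.20 ± 0.23.

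Within the mitochondrial set the shares of the abundant members were close between libraries, and those of scarce members varied more. COX1 made up 63.7% and 64.7% of its counts in WT, against 65.1% and 65.0% in Esr2-KO, and CYTB 14.1% and 13.8% against 13.9% and 13.4%. ND1, at 10.5% and 10.3% in WT, was at 9.71% and 9.59% in Esr2-KO. ND6 made up 0.05004% and 0.04752% in WT, 0.05083% in Esr2-KO 1 and 0.03504% in Esr2-KO 2. ATP8 ran from 0.001781% in Esr2-KO 1 to 0.003275% in WT 2, and ND3 from 0.005673% in WT 1 to 0.009216% in Esr2-KO 2.

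Together, the 13 genes took 7.53% and 8.80% of all counts in WT, against 7.15% and 4.43% in Esr2-KO (95% Wilson intervals 7.52 to 7.54, 8.79 to 8.81, 7.14 to 7.16 and 4.43 to 4.44, which cover counting error only). ND1, ND2, ND4, ND5, ND6, CYTB and COX1 alone took 7.52% and 8.78% in WT, against 7.14% and 4.43% in Esr2-KO. The share thus hardly counts COX2, COX3, ATP6, ATP8, ND3 and ND4L, whose levels are uncertain. With all 13 genes, both Esr2-KO libraries were below both WT libraries, with Esr2-KO 1 near WT 1 and Esr2-KO 2 far below. The mean was 8.16% ± 0.90 (SD, n = 2) in WT and 5.79% ± 1.92 (SD, n = 2) in Esr2-KO, a difference of -2.37 percentage points (exact permutation test, two-sided, p = 0.333, the smallest that 2 against 2 allows). With the exocrine pancreas markers left out of the totals, Esr2-KO 2 stood at 5.59% and the difference was -1.79 points, and without Esr2-KO 2 it was -1.01 points.

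A ratio within a library does not depend on scaling. Mitochondrial counts were 3.87 and 4.57 times the counts of the nuclear subunit genes in WT and 3.83 and 3.03 times in Esr2-KO. These are ratios of counts that carry the uncertain levels named above, and are not ratios of transcripts. On the log2 scale the mean was 2.07 ± 0.17 (SD, n = 2) in WT and 1.77 ± 0.24 (SD, n = 2) in Esr2-KO, a difference of -0.30 (exact permutation test, two-sided, p = 0.333, the smallest possible). Without Esr2-KO 2 the difference was -0.14, smaller than the SD within either group.

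**Figure D2:**
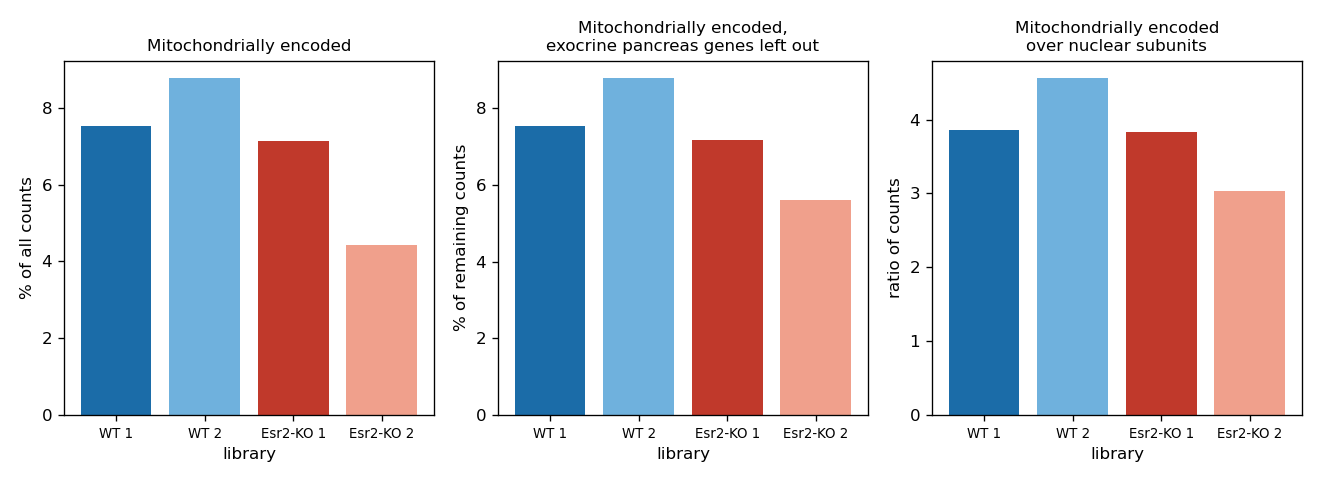
Share of counts on the 13 mitochondrially encoded genes in % of all counts (left) and of the counts left without exocrine pancreas markers (middle), and the ratio of mitochondrial to nuclear subunit counts (right), with a bar for each library. Esr2-KO 2 is the lowest in all panels, at 4.43%, 5.59% and 3.03, and Esr2-KO 1 lies next to WT 1.

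Few nuclear subunit genes passed the test between the genotypes, in a share near that of all genes. Of 83 genes 78 passed the filter on low counts, and 1 of these fell, Ndufa4, and 0 rose (background 1.39% lower and 1.3% higher). Fitted log2 fold changes lay within 0.3 of 0 for 69 of the 78, or 88.5%, where 54.7% of all genes tested did, and the median was -0.05. These shares were not matched for expression level. Beside Ndufa4, unadjusted p under 0.05 was reached by Ndufs1 and Ndufs6, 3 of 78 in all (background 20.6%). Both Esr2-KO libraries lay below both WT libraries for 32 of the 78 (background 27.7%) and above for 11 (background 27%), and 35 overlapped. Summed over all subunit genes the level was 18080 and 18440 CPM in WT, against 18020 and 17100 in Esr2-KO. Esr2-KO 2 was the lowest of the 4 libraries for 36 of the 78 genes, 46.2%, beside 33.5% of all genes tested and 84.6% (11) of the 13 mitochondrial ones.

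**Figure D3:**
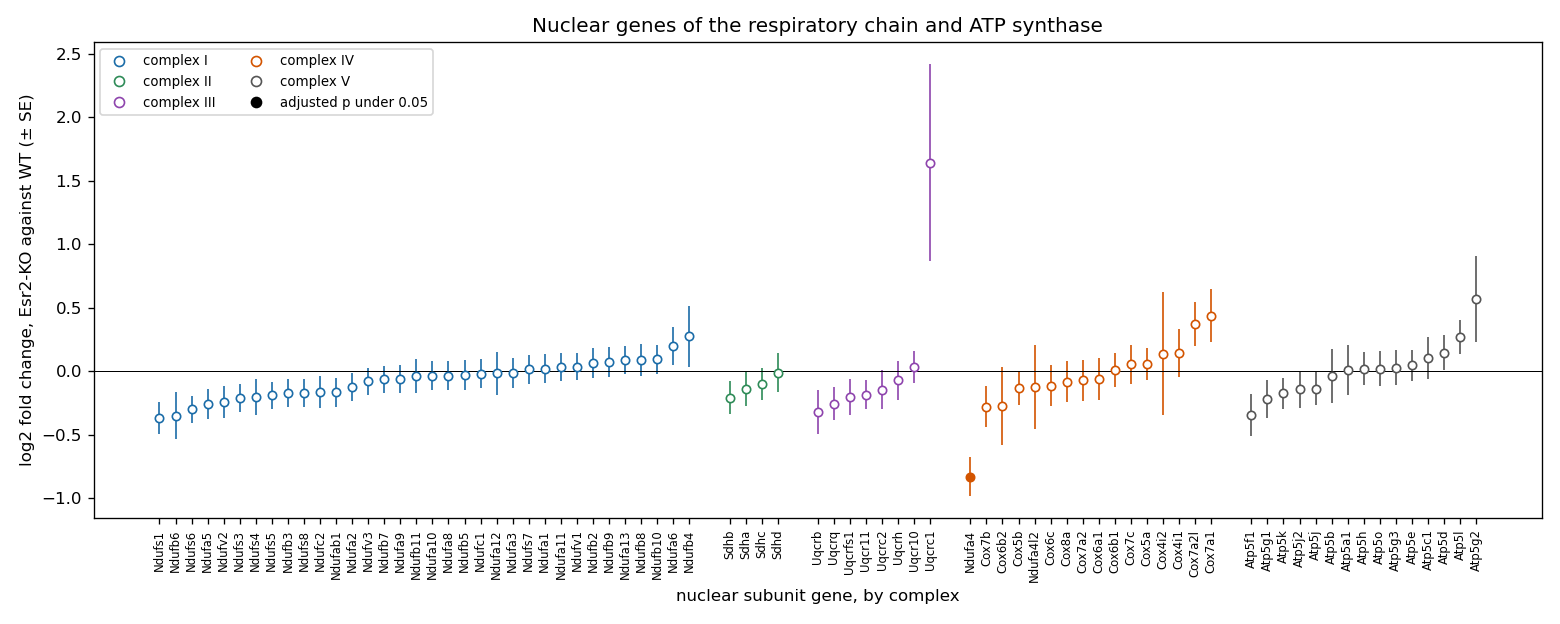
Log2 fold change of Esr2-KO against WT with its standard error for the nuclear subunit genes tested except 1, ordered by complex and then by value. Ndufa4 at -0.83 is the filled point that passed an adjusted p of 0.05, and Uqcrc1 at 1.64 has the widest error bar, 0.78.

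Ndufa4, named as a complex I subunit and since assigned to complex IV, was lower in Esr2-KO colon. It lies on chromosome 6 from 11900372 to 11907450 (GRCm38, minus strand). Its expression was 343 and 297 CPM in WT, against 195 and 164 in Esr2-KO, so that both Esr2-KO libraries were well below both WT libraries. The log2 fold change of Ndufa4 was -0.83 ± 0.15 (SE, n = 2 in each group), or 1.78-fold lower (edgeR adjusted p = 0.0476). The call stands close to the threshold: without Esr2-KO 2 the log2 fold change was -0.70 (adjusted p = 0.101), without WT 1 -0.72 (0.156) and without WT 2 -0.91 (0.0693), and with library totals in place of TMM it was -0.98 (0.0632). No annotated transcript of another gene shared a near-identical stretch with it. Its paralog Ndufa4l2, which is known as a hypoxia-induced gene, was low, with 3.41 and 2.79 CPM in WT, against 2.37 and 3.34 in Esr2-KO, and overlapped (log2 fold change -0.12 ± 0.33).

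The 250 bases before the start of Ndufa4 are shown because it is the subunit gene that passed the test. They come from RefSeq (GRCm38.p6, chr6:11907451-11907700, minus strand, 5′ to 3′) and were searched on both strands for GCGCA and GCGC set apart by any base, a form of the site of NRF1, the nuclear respiratory factor, for TCAAGGTCA, a site of the estrogen-related receptors, and for GGTCA and TGACC set apart by any 3 bases, the palindrome bound by estrogen receptors. None of these letters are in this window, so that nothing is in capitals.
Ndufa4: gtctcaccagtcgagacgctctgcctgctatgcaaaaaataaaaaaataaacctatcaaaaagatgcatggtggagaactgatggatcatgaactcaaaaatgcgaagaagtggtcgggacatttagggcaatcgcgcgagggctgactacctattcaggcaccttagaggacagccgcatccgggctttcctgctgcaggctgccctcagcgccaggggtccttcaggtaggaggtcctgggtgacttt

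The NRF1 form was in the 250-base windows of 13 of 67 subunit genes that have a promoter entry, 19.4%, and in those of 1022 of 17492 protein-coding genes, 5.84%. The estrogen-related receptor site was in 1 of the 67, Atp5g3 (1.49%, beside 0.36% of all), and the estrogen receptor palindrome in 0 of the 67, beside 10 of 17492 (0.0572%). These shares describe the windows and do not show binding. Stretches around the NRF1 form on either strand, in capitals, are given for Cox6a1, the highest nuclear subunit transcript per kilobase, for Sdhd and for Ndufs6.
Cox6a1, chr5:115349091-115349140, minus strand: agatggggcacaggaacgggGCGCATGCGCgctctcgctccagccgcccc
Sdhd, chr9:50603899-50603948, minus strand: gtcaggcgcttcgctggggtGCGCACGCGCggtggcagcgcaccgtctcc
Ndufs6, chr13:73328483-73328518, minus strand: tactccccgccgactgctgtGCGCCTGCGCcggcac

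Levels differed far more between subunit genes than between genotypes. Per kilobase of the longest coding transcript, the 36 complex I genes ran from 0.0960 to 341 CPM per kb with a median of 91.9, and the 8 of complex III from 3.26 to 692 with a median of 262. The 15 complex V genes had a median of 306 and the 20 of complex IV a median of 286 CPM per kb, with Cox6a1 (1234), Cox4i1 (1071) and Atp5b (1044), the catalytic β subunit of the ATP synthase, at the top of the nuclear genes. Genes of widely used subunits under 10 CPM per kb were Ndufa7 and Ndufb4 of complex I, Uqcrc1 of complex III and Atp5g2 of complex V, together with Ndufb2 of complex I, for which the longest coding transcript has 4371 bases and the mean level was 38.2 CPM. Near-identical stretches of other genes covered 40.16% of Ndufb4, with Ndufb4c the longest, and 16.87% of Atp5g2, and covered 0% of Ndufa7 and Uqcrc1. The part of these copies in the low values was not tested, and the counts of Ndufb4 and Atp5g2 are uncertain. Ndufa7 had 0, 4, 3 and 0 counts in WT 1, WT 2, Esr2-KO 1 and Esr2-KO 2. In the same order Uqcrc1 had 93, 92, 71 and 377 counts, and Uqcrc2, the other core protein of complex III, had 15166, 13792, 13406 and 9100. The reason for the low counts of Ndufa7 and Uqcrc1 was not tested, and they are uncertain too.

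In complex I, 0 of 35 tested genes passed (background 2.69%), and the median log2 fold change was -0.03. Ndufs1, the large iron-sulfur subunit that receives electrons early in the complex, had 162 and 150 CPM in WT, against 130 and 113 in Esr2-KO. The groups did not overlap, but the log2 fold change of -0.37 ± 0.13 did not pass (edgeR adjusted p = 0.177). Ndufs6, an accessory subunit, was similar, with 77.6 and 81.1 CPM against 64.2 and 64.7 CPM (-0.30 ± 0.10, edgeR adjusted p = 0.174). At the other end of the set was the scarce Ndufb4, with 188 and 196 counts in WT, against 200 and 191 in Esr2-KO (0.27 ± 0.24).

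The 7 assembly factors, which help to build complex I without remaining in it, gave 0 calls by edgeR, DESeq2 and limma-voom (background 2.69%, 9.83% and 3.53%). They also gave 0 at an unadjusted p under 0.05 (background 20.6%). Their median was -0.21, and for 4 of them, Ndufaf2, Ndufaf5, Ndufaf6 and Ndufaf7, both Esr2-KO libraries were below both WT libraries (background 27.7%). Ndufaf6 was the lowest, with 9.03 and 7.76 CPM in WT, against 6.32 and 6.64 in Esr2-KO (log2 fold change -0.37 ± 0.22, edgeR adjusted p = 0.376). Atp5sl stood at 33.7 and 39.2 CPM in WT, against 41.8 and 46.0 in Esr2-KO (0.27 ± 0.14, edgeR adjusted p = 0.320), Atp5s at 11.5 and 14.6 against 11.5 and 8.53 CPM. The 9 pseudogenes together had at most 2.27 CPM in a library.

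Complex II, which is also the succinate dehydrogenase of the citric acid cycle, had 0 of 4 genes called (background 2.69%). Sdha, the flavoprotein, had 382 and 382 CPM in WT, against 356 and 339 in Esr2-KO, and Sdhb, the iron-sulfur subunit, had 249 and 262 against 232 and 211 CPM. Their log2 fold changes were -0.14 ± 0.14 and -0.21 ± 0.13. Of the membrane anchors, Sdhc had 228 and 219 CPM in WT, against 218 and 199 in Esr2-KO (-0.10 ± 0.12). Sdhd had 387 and 386 against 414 and 354 CPM, with the WT libraries between the Esr2-KO libraries. Both Esr2-KO libraries were thus below both WT libraries for 3 of the 4 genes (background 27.7%), for Sdhc by a narrow margin.

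In complex III, 0 of 8 genes passed (background 2.69%), the median was -0.16, and 5 of the 8 had both Esr2-KO libraries below both WT libraries (background 27.7%). Uqcrb, a small subunit near the quinone site, had 251 and 282 CPM in WT, against 244 and 183 in Esr2-KO (log2 fold change -0.32 ± 0.17, edgeR adjusted p = 0.353). Uqcrc2, a core protein, had 418 and 396 CPM in WT, against 391.9 and 345 in Esr2-KO (-0.14 ± 0.15). Uqcrc1, its partner core protein on chromosome 9 (108936648 to 108949641), departed from the rest. It had 93 and 92 counts in WT, against 71 and 377 in Esr2-KO. Counts of Uqcrc1 are uncertain, as said above. Its fitted log2 fold change, 1.64 ± 0.78 (edgeR adjusted p = 0.292), rested on Esr2-KO 2 alone and turned to -0.32 without that library, which is the library with the pancreatic markers.

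**Figure D4:**
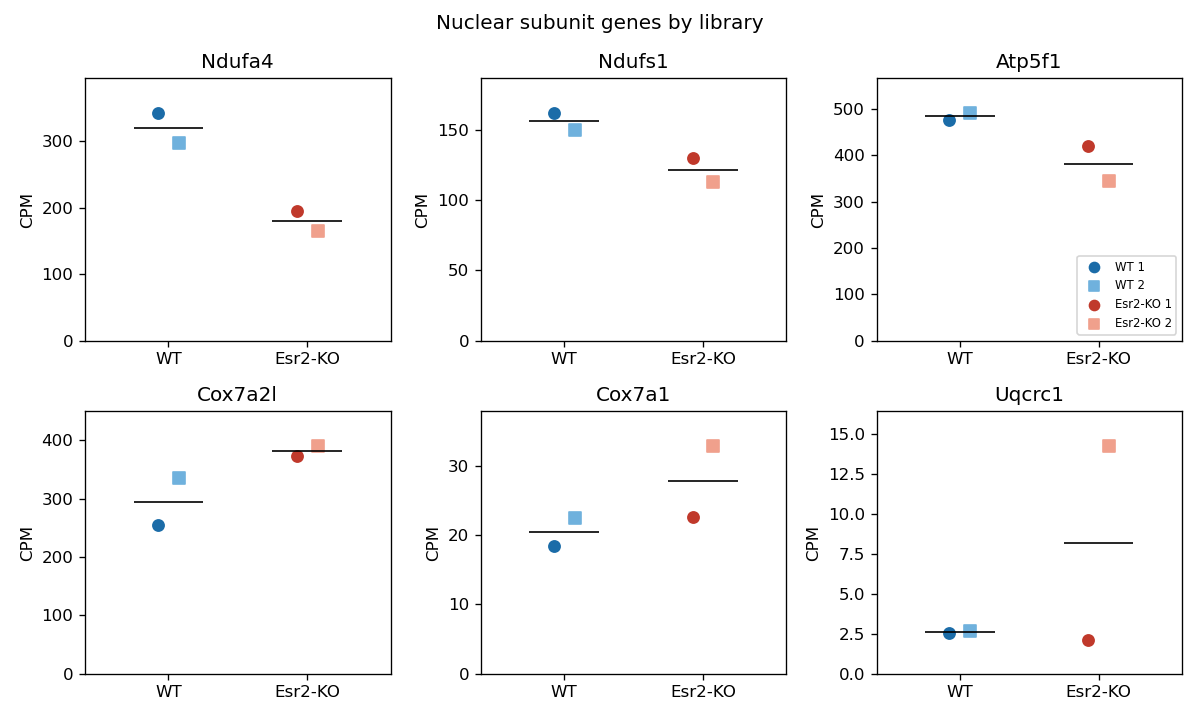
CPM of 6 nuclear subunit genes in each library (points) with group means (lines), axes from 0. Ndufa4, Ndufs1 and Atp5f1 lie lower in both Esr2-KO libraries, Cox7a2l and Cox7a1 higher, and Uqcrc1 stands at 14.3 CPM in Esr2-KO 2 and between 2.08 and 2.64 CPM in the other 3.

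In complex IV, 16 of 20 genes were tested, Ndufa4 fell and 0 rose (background 1.39% lower and 1.3% higher), with a median of -0.07. Cox4i1, the most abundant regulatory subunit, had 706 and 849 CPM in WT, against 848 and 874 in Esr2-KO (log2 fold change 0.15 ± 0.19), overlapping by little. Cox7a2l, which is known to help complexes III and IV join into supercomplexes, had 254 and 335 CPM in WT, against 373 and 391 in Esr2-KO. Both Esr2-KO libraries were above both WT libraries (background 27%), and the log2 fold change of 0.37 ± 0.18 did not pass (edgeR adjusted p = 0.290). A transcript of another gene, Gm6969, holds 17.8% of the Cox7a2l transcript at near identity, and its value is uncertain. Cox7b, a small structural subunit, was at 461 and 491 CPM in WT, against 429 and 356 in Esr2-KO (-0.28 ± 0.16).

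Several subunits of complex IV come as a widely used form and a form limited to certain tissues. The wide forms carried nearly all counts: Cox6a1 had 711, 728, 683 and 696 CPM (WT 1, WT 2, Esr2-KO 1 and Esr2-KO 2), and Cox6a2, the heart and skeletal muscle form, had 1, 3, 1 and 18 counts. Cox8a had 598, 570, 581 and 524 CPM, and its partner Cox8b, also of muscle and brown fat, had 0, 8, 1 and 5 counts. Cox8c and Cox7b2 had 0 counts in every library, below a floor of 3 counts or 0.0826 to 0.114 CPM. Cox6b1 had 329 and 328 CPM in WT, against 339 and 322 in Esr2-KO, and Cox6b2, known from testis, had 3.30 and 3.54 against 3.19 and 2.47 CPM. Cox4i2, the form known for lung and low oxygen, had 69 and 34 counts in WT, against 44 and 50 in Esr2-KO.

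Cox7a1, the contractile muscle form of Cox7a, was the tissue-limited form with the highest level. It had 18.5 and 22.5 CPM in WT, against 22.7 and 33.0 in Esr2-KO, with no overlap by a narrow margin (log2 fold change 0.44 ± 0.21, edgeR adjusted p = 0.299). The wide form Cox7a2 had 213 and 248 CPM in WT, against 244 and 195 in Esr2-KO (-0.07 ± 0.16). The 9 smooth muscle markers summed to 6479 and 5030 CPM in WT, against 5113 and 6475 in Esr2-KO, and the 14 striated muscle markers to 30.8 and 35.7 against 31.5 and 42.4 CPM, highest in Esr2-KO 2, where Cox7a1 and Cox6a2 were also highest. Tnnt2, at 2.75, 2.33, 9.68 and 17.3 CPM, made that order: the other 13 summed to 28.0 and 33.4 CPM in WT and 21.8 and 25.1 in Esr2-KO, and Acta1 had 3.74, 12.0, 4.09 and 2.81 CPM. Of the striated muscle markers 3, 4, 3 and 2 were at 0 in the 4 libraries, and the part of muscle tissue in these values was not tested.

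In complex V, 0 of 15 genes passed (background 2.69%) and the median was 0.020. Atp5b had 2096 and 1957 CPM in WT, against 1972 and 1979 in Esr2-KO (log2 fold change -0.04 ± 0.21), the groups lying within each other. Atp5f1, part of the stalk that holds the catalytic head still, had 476 and 492 CPM in WT, against 419 and 344 in Esr2-KO, with no overlap (-0.34 ± 0.17, edgeR adjusted p = 0.299). Atp5l, a small membrane subunit, went the other way, with 44.2 and 54.0 CPM in WT, against 59.1 and 59.3 in Esr2-KO (0.27 ± 0.13, edgeR adjusted p = 0.307), though transcripts of other genes hold 57.35% of its transcript at near identity and its value is uncertain. Atp5g2, 1 of 3 genes for the same ring subunit, had 69 and 57 counts in WT, against 94 and 66 in Esr2-KO (0.57 ± 0.34).

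Genes that serve these complexes were examined by list, each beside the median of -0.0031 for all genes. Of all genes tested edgeR called 1.3% higher and 1.39% lower and put 20.6% at an unadjusted p under 0.05, DESeq2 called 9.83% and limma-voom 3.53%. Among 15 tested transcriptional regulators of respiratory genes 1 rose (background 1.3%) and 0 fell, with a median of 0.13, while 9 were at an unadjusted p under 0.05 (background 20.6%), DESeq2 called 5 and limma-voom 1. Both Esr2-KO libraries lay above both WT libraries for 8 of the 15 (background 27%) and below for 4 (background 27.7%). The regulator called higher was Hif1a, the oxygen-regulated factor, with 113 and 85.9 CPM in WT, against 199 and 177 in Esr2-KO. Its log2 fold change was 0.92 ± 0.16 (edgeR adjusted p = 0.0436), and it did not pass without WT 2 (0.75, adjusted p = 0.0963) or with library totals in place of TMM (0.76, adjusted p = 0.124). Of 77 mitochondrial ribosomal protein genes 1 rose, Mrps6 (0.76 ± 0.13, edgeR adjusted p = 0.0427), and 0 fell (background 1.3% higher and 1.39% lower), with a median of -0.05. Mrps6 had 27.6 and 25.4 CPM in WT, against 42.1 and 47.3 in Esr2-KO. Its call ended without WT 1 (adjusted p = 0.155), without WT 2 (0.142), without Esr2-KO 2 (0.0647), with library totals (0.15) and with the replicate number as a block (0.0767).

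None of 23 genes of electron carriers and of subunits outside the symbol pattern passed in edgeR, with a median of -0.10 and 8 at an unadjusted p under 0.05 (background 20.6%). DESeq2 called 5 of them and limma-voom 1. Higd1a, a small protein known to bind complex IV under low oxygen, had 167 and 163 CPM in WT, against 95.2 and 58.7 in Esr2-KO. Both Esr2-KO libraries were far below both WT libraries, and its log2 fold change of -1.10 ± 0.22 had an edgeR adjusted p of 0.0571, with 2.05e-05 to 0.167 over the alternatives. Pdss1, an enzyme that makes the side chain of ubiquinone, was at -0.73 ± 0.18 (edgeR adjusted p = 0.0866).

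The other lists gave 0 calls by edgeR. Of 42 assembly factors outside the pattern, 1 was at an unadjusted p under 0.05 (background 20.6%) and DESeq2 and limma-voom called 0, with a median of 0.0066, Sco1, which delivers copper to complex IV, at -0.41 ± 0.15 (edgeR adjusted p = 0.182) and Bcs1l at 0.44 ± 0.19 (edgeR adjusted p = 0.257). Of 30 genes that copy mitochondrial DNA or handle its RNA, 5 were at an unadjusted p under 0.05 (background 20.6%) and DESeq2 and limma-voom called 0, with a median of 0.013. Tfam, which packs mitochondrial DNA and starts its transcription, had 60.1 and 54.3 CPM in WT, against 44.1 and 42.0 in Esr2-KO (-0.41 ± 0.12, edgeR adjusted p = 0.120), and Pnpt1, which degrades mitochondrial RNA, was at -0.51 ± 0.17 (edgeR adjusted p = 0.161).

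Of 18 genes of pyruvate dehydrogenase and the citric acid cycle, 2 were at an unadjusted p under 0.05 (background 20.6%), DESeq2 called 2 and limma-voom 0, with a median of -0.04. These 2 went apart. Dld, the dihydrolipoamide dehydrogenase shared by several such complexes, had 208 and 198 CPM in WT, against 152 and 120 in Esr2-KO (-0.58 ± 0.15, edgeR adjusted p = 0.0976), and citrate synthase (Cs) had 490 and 504 against 641 and 685 CPM (0.42 ± 0.16, edgeR adjusted p = 0.214). Of 13 tested carriers and channels with the ATP synthase inhibitor, 3 were at an unadjusted p under 0.05 (background 20.6%), DESeq2 called 1 and limma-voom 0, with a median of 0.12. Atpif1, the inhibitor, had 306 and 318 CPM in WT, against 236 and 213 in Esr2-KO, with no overlap (-0.47 ± 0.13, edgeR adjusted p = 0.118), and the ADP/ATP exchanger Slc25a4 was at -0.34 ± 0.13 (edgeR adjusted p = 0.208).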

How the data were processed

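The authors deposited raw read counts for each gene symbol, in whole numbers. The submitters' processing notes name HISAT2 and the build mm10, and per the labels' protocols Trizol RNA was cleared of ribosomal RNA before directional library preparation. The sources used here name no counting program, annotation or strand setting, so that overlapping and near-identical genes cannot be told apart. Counts of the replicates differed by far more than sampling noise (chi-square per degree of freedom 39.7 in WT and 478 in Esr2-KO).

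Genes were kept with filterByExpr (minimum count 10, minimum total 15), which left 17169. TMM factors were 1.08, 1.04, 1.04 and 0.856. The test was that of edgeR 4.0.16, run in R 4.3.3 (glmQLFit and glmQLFTest, two-sided, 2 residual degrees of freedom), with Benjamini-Hochberg adjustment over all genes and a threshold of 0.05. The test moderates the spread of each gene with that of all genes. It thus does not rest on the 2 residual degrees of freedom alone. Standard errors come from the coefficient and its F statistic and carry this moderation. The procedure was tested on simulated counts. Of the 114 symbols 102 passed the filter and 12 did not. The subunit genes left out were Ndufa7, Cox6a2, Cox7b2, Cox8b and Cox8c, and the rest were pseudogenes. Transcript lengths and copies are from GENCODE vM21 (GRCm38), searched with BLAST, and gene positions and promoters from RefSeq GRCm38.p6, the same build, counted from 1.

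Genes, lists and tests were chosen with earlier results of these data known. Genes named are the 13 mitochondrial and 4 Sdh genes, nuclear members past the threshold, per complex the most abundant and those with the highest and lowest fold change at a mean of at least 2 log2 CPM, the complex IV isoforms, and of each list up to 4 past the threshold or otherwise the 2 with the smallest p. Others (Ndufs6, Atp5g2, Ndufaf6, Atp5s, Atp5sl and the markers) were named after their values were seen. One gene is not reported here. Ndufa4 and Ndufa4l2 were grouped with complex IV. Alternatives were other scalings, no filter, DESeq2 1.42.0, limma-voom (limma 3.58.1), the replicate number as a block, gene sets left out, and each library left out. Running the lists under them was added after the data were seen.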

Additional observations from a re-analysis of the deposited data

How the results depend on the processing

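The count of nuclear subunit genes past the threshold, 1, was 0 with library totals, 2 without the filter and 0 to 3 with a library left out. For mitochondrial genes the count was 1 with DESeq2 and 0 to 1 with a library left out. Over all genes 462 passed, 695 with library totals, 1916 without the filter, 1682 with DESeq2 and 165 to 1804 with a library left out. The unfiltered fit tested 25515 genes, and DESeq2 gave an adjusted p for 17105. The median of the nuclear subunits, -0.05, was -0.21 with library totals, where the median of all genes moved to -0.17 and the split of calls from 223 higher and 239 lower to 208 and 487. Electron carrier genes gave 0 calls, 1 with library totals, limma-voom, the block or no pancreas markers, 4 without the filter, 5 with DESeq2 and 0 to 5 with a library left out. Regulators gave 1, 5 without the filter and with DESeq2 and 2 without pancreas markers, and their count changed with a library left out. They also gave 1 with library totals, where Hif1a did not pass, so that another gene made this call. Citric acid cycle genes gave 1 without the filter, 2 with DESeq2 and 0 to 1 with a library left out, carriers 1 with DESeq2, other assembly factors 0 to 1 with a library left out, and ribosomal proteins 0 with library totals and the block and 0 to 1 with a library left out.

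Most of the signs that turned belonged to values near 0. With upper-quartile factors ND3 was -0.0118 and Cox6b1 -0.0102, and with library totals ND3 was -0.1497, Cox6b1 -0.1508, Cox4i1 -0.0186 and Cox4i2 -0.0539. Sdhd was 0.0001 without the filter, 0.0028 without mitochondrial genes and 0.0022 without pancreas markers. With a library left out, ND3 ranged from -0.2184 to 0.2982, COX3 from -0.3967 to 0.1462, ATP6 from -0.4962 to 0.0667, Sdhd from -0.1248 to 0.1062, Uqcrc1 from -0.3198 to 2.4603, Atp5b from -0.0674 to 0.0139, Cox4i2 from -0.2402 to 0.6976, Cox6b1 from -0.0235 to 0.0531, Cox7a2 from -0.2417 to 0.0896, Ndufa4l2 from -0.3825 to 0.1095 and Esr2 from -1.4167 to 0.3503. The cause was not tested.

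The replicate numbers do not pair the libraries by any label, and deviations from the group means correlated at -0.0641 across 17169 genes. With the replicate number as a block Ndufa4 was at -0.83 (adjusted p = 0.0459) and 490 genes passed. The mitochondrial median, share and ratio moved by less than the spread between replicates under every alternative run. For the share and the ratio, a left-out library or the block could not move the difference beyond this spread. For the median, it could hardly do so. This outcome therefore does not show that the median, the share or the ratio is stable. The share difference went from -2.37 to -1.01 percentage points without Esr2-KO 2. Left-out libraries gave mitochondrial medians from -0.55 to -0.14. With 2 libraries per group no permutation test can pass 0.05, and tests of the share and the ratio give no evidence on stability.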

Other observations

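AA467197, looked up after the values of Ndufa4 were seen, encodes a paralog that is known to take the place of Ndufa4 in complex IV. Its level was 224 CPM in WT 1 and 402 in WT 2, beside 405 in Esr2-KO 1 and 292 in Esr2-KO 2. The groups overlapped, with a log2 fold change of 0.16 ± 0.30 and an edgeR adjusted p of 0.806.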
